A study of Homo sapiens with 12 samples.

Results

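The miR-29 family was measured in extracellular vesicles, the membrane-bound particles that cells release into their medium. Its 4 members here are hsa-miR-29a-3p, hsa-miR-29b-3p, hsa-miR-29c-3p and hsa-miR-29b-1-5p, taken by name from the 1636 mature miRNAs of the count table, and all 4 of 4 passed the filter on low counts that kept 318 miRNAs for testing. Vesicles came from the colorectal cancer (CRC) lines MDST8, RCM-1, SW1116, HT55, Car-1 and Hutu80, with no treatment given in the labels and 2 small RNA libraries each, 12 in all. All lines shared one culture medium, DMEM/F12 with fetal bovine serum and antibiotics, and a vesicle preparation by ultrafiltration and size-exclusion chromatography. The series was designed around the molecular subtypes CMS2 and CMS4, but the labels do not say which line has which subtype, so the lines were compared one with another. Each line stands for 1 tumour. Whether replicate libraries stem from different cultures is not in the labels, so the p-values rest on a spread among libraries that could be technical alone.

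MicroRNAs are short RNAs that lower the output of messenger RNAs, which they find mainly by pairing through their seed, bases 2 to 8 from the 5′ end. The miR-29 guides are known for holding down the genes of the extracellular matrix, among them fibrillar collagens, elastin and fibrillin, and the DNA methyltransferases DNMT3A and DNMT3B. Each is cut from a hairpin whose 3p arm becomes the guide, while the 5p arm, of which miR-29b-1-5p is one, is mostly discarded as the passenger. Vesicle levels are levels of exported RNA and were not compared with levels in the cells.

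The mature sequences show why the family is read as one group. They are given from RefSeq (GRCh38.p14), 5′ to 3′, with the seed in capitals.
miR-29a-3p: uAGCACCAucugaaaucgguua
miR-29b-3p: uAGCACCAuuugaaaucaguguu
miR-29c-3p: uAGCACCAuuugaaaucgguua
miR-29b-1-5p: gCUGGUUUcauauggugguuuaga
miR-29b-2-5p: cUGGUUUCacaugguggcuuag
The 3 guides share the seed AGCACCA, and among 2370 mature miRNA names in the RefSeq table no others carried it at bases 2 to 8. Counting positions from 1 at the 5′ end of the first-named sequence, miR-29c-3p differs from miR-29a-3p by C10U alone. miR-29b-3p differs from miR-29a-3p by C10U, G18A, U21G and A22U and is 1 base longer. The miR-29a-3p and miR-29c-3p counts are therefore uncertain in how near-identical reads were divided between them, since the counting rule is not given in the sources used here.

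The miR-29b-3p tail holds a hexamer, AGUGUU, that is known to direct this miRNA into the nucleus. It begins at base 18, shown in capitals.
miR-29b-3p, hexamer: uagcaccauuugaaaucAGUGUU
No other arm of the family held AGUGUU, and 13 of the 2370 names in the table did (0.55%). This is a match of letters and says nothing of location in these cells.

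The 4 hairpins lie in 2 clusters. In GRCh38, MIR29A (chr7:130876747-130876810) and MIR29B1 (chr7:130877459-130877539) are both on the minus strand with 648 bases between them. MIR29B1 lies inside an exon of the long noncoding RNA LINC-PINT in GENCODE annotation. MIR29C (chr1:207801852-207801939) and MIR29B2 (chr1:207802443-207802523) are on the minus strand of chromosome 1 with 503 bases between them, both inside an exon of the long noncoding RNA MIR29B2CHG. The miR-29b-3p sequence is the same from both of its hairpins, so its counts cannot be assigned to a cluster, whereas the 5p arms differ. The hairpins are shown with both annotated arms in capitals.
MIR29B1: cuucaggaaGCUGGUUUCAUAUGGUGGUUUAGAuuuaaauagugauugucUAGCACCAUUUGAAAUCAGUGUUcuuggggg
MIR29B2: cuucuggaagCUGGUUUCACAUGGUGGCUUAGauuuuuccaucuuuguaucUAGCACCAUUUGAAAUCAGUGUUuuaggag
From miR-29b-1-5p to miR-29b-2-5p the changes within the shared stretch are U11C and U19C, and miR-29b-1-5p starts 1 base earlier.

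Library totals ran from 71831 counts in Hutu80 replicate 1 to 622800 in SW1116 replicate 1, so a single count was worth 13.9 to 1.61 CPM, which are counts scaled to a fixed library total. Levels below are CPM scaled by TMM factors, which put the libraries on a common scale. The 6 gut epithelium miRNAs used to check the labelled tissue, among them miR-192-5p, miR-194-5p, miR-375-3p and miR-200c-3p, were found in every line, but their summed level was 4076 to 5480 CPM in MDST8 and 8638 to 10118 in Hutu80, against 87601 to 132065 in HT55, SW1116 and RCM-1. Car-1 lay between, at 16085 to 28570. Hutu80 is commonly described as a line from the duodenum, although the labels list it with the others as CRC.

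Vesicles of MDST8 carried the most of all 3 miR-29 guides, by a wide margin for miR-29a-3p, and vesicles of Hutu80 the least by mean level. In the main edgeR fit no guide differed between Hutu80 and Car-1 or HT55 (adjusted p from 0.0988 to 0.841). The passenger arm miR-29b-1-5p was also lowest in Hutu80 by mean level but highest in RCM-1, and its differences did not pass the test across lines. Over all libraries miR-29a-3p made up most of the family, with 16961 counts, against 631 for miR-29b-3p, 222 for miR-29c-3p and 220 for miR-29b-1-5p. By mean level these stood at ranks 29, 152, 229 and 227 of the 1636 miRNAs in the table.

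miR-29a-3p, the most abundant guide, stood at 16399 and 16515 CPM in the 2 libraries of MDST8. In RCM-1 it was 4423 and 4585, and in SW1116 4124 and 2483. HT55 had 1333 and 2391, Car-1 1758 and 1355, and Hutu80 1188 and 1122. Both MDST8 libraries were above all others and both Hutu80 libraries below all others, while the ranges of HT55 and Car-1 overlapped.

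miR-29a-3p differed across the 6 lines (edgeR quasi-likelihood F-test with Benjamini-Hochberg adjustment, adjusted p = 1.42e-10), where 68.2% of tested miRNAs did so. MDST8 was above the mean of the other 5 lines by 2.91 ± 0.20 on the log2 scale (SE; adjusted p = 1.59e-11), and 22.0% of miRNAs were higher in MDST8 by this test. Against RCM-1, its nearest neighbour, the log2 difference was 1.87 ± 0.31 (adjusted p = 2.24e-05), and all 5 pairs of MDST8 with another line passed. Over all tested miRNAs, 42.1% differed between MDST8 and RCM-1, 34.9% from SW1116, 39.6% from HT55, 41.5% from Car-1 and 43.1% from Hutu80. Hutu80 was lower, by -1.69 ± 0.27 (adjusted p = 2.10e-05), where 16.7% of miRNAs were lower in that line. In these bulk preparations, fewer vesicles that carry a miRNA and fewer copies in each vesicle cannot be told apart.

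The other lines formed a graded middle. RCM-1 was above the log-scale mean of the other lines by 0.67 ± 0.22 (adjusted p = 0.0214; 21.1% of miRNAs were higher there), although its 4504 ± 115 CPM (SD, n = 2) is below their arithmetic mean, which MDST8 raises. This call was lost in 5 of 21 alternatives: with library totals as the only scaling (adjusted p = 0.139), no filter on low counts (0.0661), limma-trend (0.157), and without RCM-1 replicate 1 (0.0991) or replicate 2 (0.177). Car-1 was lower by -1.17 ± 0.26 (adjusted p = 0.000904; 13.5% of miRNAs were lower there), a call lost with limma-trend (0.153) and with library totals (0.103), which moved the median of all tested miRNAs in Car-1 by 0.62. HT55 was lower by -0.85 ± 0.25 (adjusted p = 0.0144; 10.4% lower there), a call lost without HT55 replicate 1 (0.432). Below MDST8, no pair of neighbours in the order RCM-1, SW1116, HT55, Car-1, Hutu80 passed (edgeR adjusted p from 0.0601 to 0.582). HT55 against SW1116 passed in 9 of 21 alternatives, among them no filter on low counts (0.0239), DESeq2 (0.0407) and 7 of the 12 that leave out a library: HT55 replicate 2, SW1116 replicate 2, MDST8 replicate 2 or either library of Car-1 or Hutu80 (0.0162 to 0.0478). Car-1 against Hutu80 passed with no filter on low counts (0.043). Outside MDST8, 5 of 10 pairs passed, all of them with RCM-1 or SW1116 as the higher line. Of all tested miRNAs, 42.1% differed between Car-1 and RCM-1, 41.2% between Hutu80 and RCM-1, 44.0% between SW1116 and Hutu80, 39.3% between Car-1 and SW1116, 30.8% between HT55 and Hutu80, 28.9% between HT55 and Car-1, 20.4% between HT55 and SW1116, 18.2% between Car-1 and Hutu80, and 13.5% between HT55 or SW1116 and RCM-1.

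**Figure D1:**
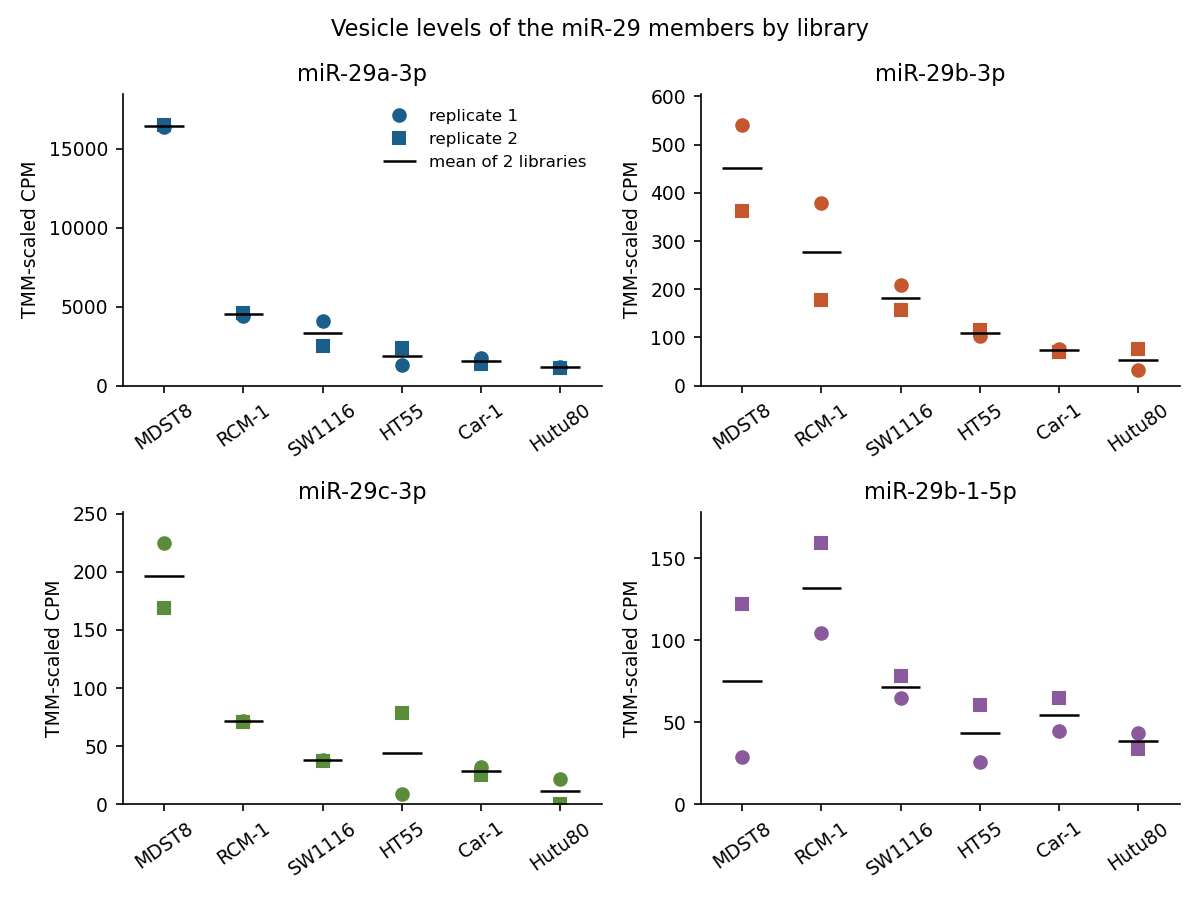
Scaled CPM of the 4 members (vertical axes, linear, a separate scale for each) in each of the 12 libraries by line; circles and squares are the 2 replicates and bars their mean. miR-29a-3p is at 16399 and 16515 CPM in MDST8 and at most 4585 elsewhere, while miR-29b-1-5p is highest in RCM-1 and its 2 MDST8 libraries lie apart, at 28.5 and 122 CPM.

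miR-29b-3p, the guide that both clusters make, had the same order at a much lower level. MDST8 had 541 and 363 CPM, RCM-1 378 and 177, and SW1116 209 and 156. HT55 had 104 and 116, Car-1 76.9 and 69.8, and Hutu80 32.7 and 75.3, the last from 3 and 9 counts. The lower MDST8 library fell below RCM-1 replicate 1, so these 2 lines overlapped.

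miR-29b-3p differed across lines (edgeR adjusted p = 9.16e-05) and was higher in MDST8 than in the mean of the others by 1.94 ± 0.33 (adjusted p = 3.75e-05). Of the pairs with MDST8, 4 of 5 passed, and the exception was RCM-1, with a log2 difference of 0.73 ± 0.47 (adjusted p = 0.237). The pair with SW1116 (adjusted p = 0.0349) was lost without MDST8 replicate 1 (0.253), SW1116 replicate 1 (0.0634) or 2 (0.198), or HT55 replicate 2 (0.0593), and with no filter on low counts (0.165). RCM-1 was itself higher than the other lines by 1.06 ± 0.36 (adjusted p = 0.0239), but this call was lost in 7 of 21 alternatives: without RCM-1 replicate 1 (0.538) or HT55 replicate 2 (0.0535), with library totals (0.0694), with no filter (0.102), and by DESeq2 (0.0730), limma-voom (0.0716) and limma-trend (0.119). Hutu80 was lower by -1.67 ± 0.51 (adjusted p = 0.0118), a call lost without Hutu80 replicate 1 (0.0916) and by limma-voom (0.0711). Car-1 was lower by -1.20 ± 0.44 (adjusted p = 0.0351), and this call was lost in 11 of 21 alternative analyses, among them without either Car-1 library (0.185 and 0.116).

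miR-29c-3p, the guide made only from the chromosome 1 cluster, was thin in counts outside MDST8. MDST8 had 225 and 169 CPM, from 71 and 54 counts. RCM-1 had 71.7 and 70.7 CPM, SW1116 37.8 and 37.5, and Car-1 32.4 and 24.9. The HT55 libraries were far apart, at 8.65 and 78.8 CPM from 1 and 17 counts, and Hutu80 had 21.8 and 0 from 2 counts and none. Both MDST8 libraries were above the other 10.

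miR-29c-3p differed across lines (edgeR adjusted p = 0.00275) and was higher in MDST8 by 2.57 ± 0.52 on the log2 scale (adjusted p = 0.00021). This size is uncertain in part because Hutu80 has only 2 counts. Of the pairs with MDST8, 4 of 5 passed. The pair with HT55 (edgeR adjusted p = 0.0383) was lost without HT55 replicate 1 (0.260) or MDST8 replicate 1 (0.114), with no filter (0.0588), and by DESeq2 (0.0567) and limma-trend (0.0932). The pair with SW1116 (adjusted p = 0.0139) was lost by limma-trend (0.104) and without either SW1116 library or MDST8 replicate 1 (0.0603 to 0.0905). Against RCM-1 the difference was 1.46 ± 0.73 (adjusted p = 0.115). In Hutu80, unscaled CPM pooled over libraries was 11.6, against 74.1 in the other lines, a ratio of 6.39 with a 95% counting interval of 1.75 to 53.1. The edgeR test of Hutu80 gave an adjusted p of 0.0484, which was lost in 6 of 21 alternatives: without Hutu80 replicate 2 (0.364), HT55 replicate 2 (0.0770) or either SW1116 library (0.0508 and 0.0524), with library totals (0.1003), and by DESeq2 (0.0747).

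miR-29b-1-5p, the passenger arm of MIR29B1, was highest in RCM-1, at 104 and 159 CPM. MDST8 had 28.5 and 122 CPM, from 9 and 39 counts, which spans most of the range of the other lines. SW1116 had 64.5 and 78.1, Car-1 44.5 and 64.8, HT55 26.0 and 60.2, and Hutu80 43.6 and 33.5. It did not pass across lines (edgeR adjusted p = 0.264), and 0 of 15 pairs of lines passed (lowest adjusted p = 0.0803, Hutu80 against RCM-1). At an unadjusted edgeR p below 0.05 there was 1 such pair, and DESeq2 and limma-voom called 0 after adjustment. In MDST8 its log2 difference from the other lines was 0.28 ± 0.54 (adjusted p = 0.710). In RCM-1 it was 1.27 ± 0.51 (adjusted p = 0.0567), and 5 of 21 alternatives brought that below 0.05, among them leaving out Car-1 replicate 2 (0.0288) or MDST8 replicate 2 (0.0138).

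**Figure D2:**
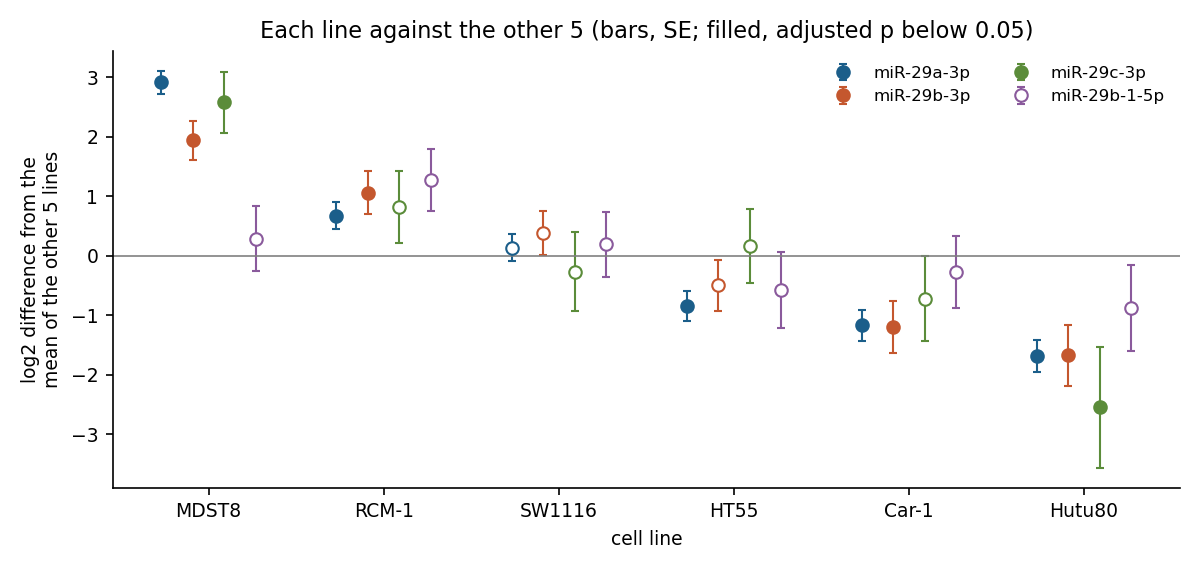
Log2 difference of each line from the mean of the other 5 (vertical axis) for the 4 members, with SE bars; filled points have an edgeR adjusted p below 0.05. In MDST8 the 3 guides lie at 2.91, 1.94 and 2.57 and miR-29b-1-5p at 0.28; the low Hutu80 point of miR-29c-3p rests on 2 counts.

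Ratios between members within a library do not depend on how libraries are scaled, so they were used to test whether members varied differently over the lines. With 0.5 counts added to each, the mean log2 ratio of miR-29a-3p to miR-29b-1-5p was 8.08 ± 1.44 in MDST8 (SD, n = 2) and from 4.75 to 5.47 in the other lines. Both MDST8 libraries were above the other 10. An exact permutation test over 10395 arrangements gave p = 0.0481, or 0.289 after Benjamini-Hochberg adjustment over the 6 ratios, which did not pass. Many arrangements keep the 2 MDST8 libraries together, so a shift in MDST8 alone, whatever its size, can hardly pass after adjustment. The test therefore cannot decide whether MDST8 differs in this ratio. The other 5 ratios had exact permutation p from 0.118 to 0.951. A ratio with miR-29c-3p in Hutu80 or HT55 rests on very few counts, and a p above the threshold does not show that members moved alike.

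**Figure D3:**
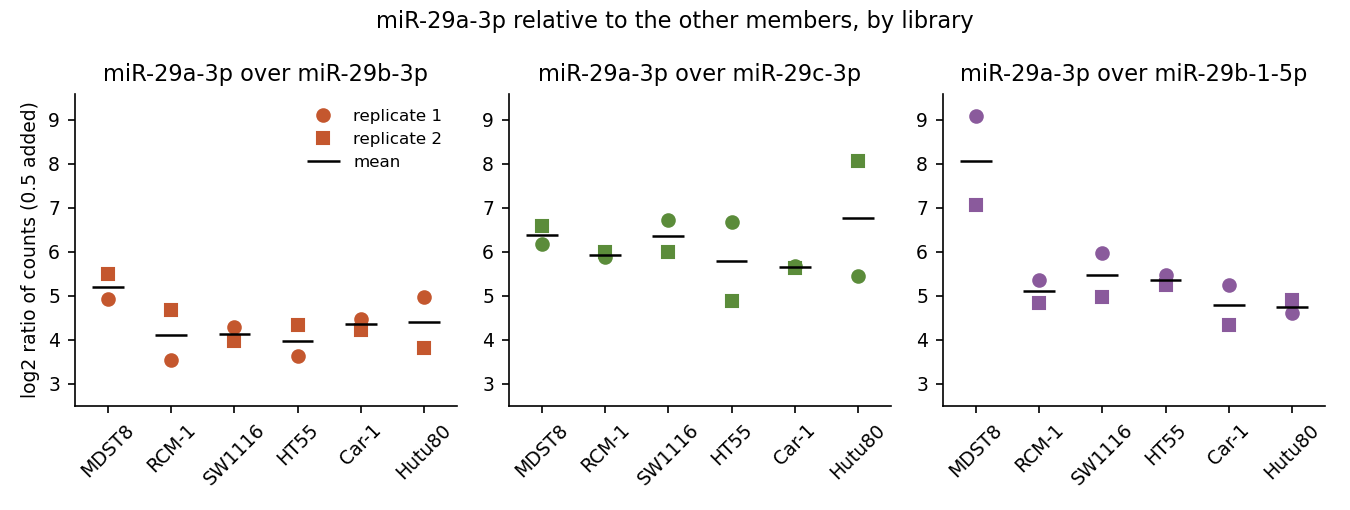
Log2 ratio of counts of miR-29a-3p to each other member (vertical axes, 0.5 counts added), in each library by line, with bars at the mean of the 2 replicates. Only the ratio to miR-29b-1-5p sets both MDST8 libraries above the other 10, and its adjusted exact permutation p was 0.289.

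The guide pool was mostly miR-29a-3p in every line, and no test was made of the shares. miR-29a-3p was 96.2% ± 0.95 (SD, n = 2) of the summed guide counts in MDST8, the highest share, and 92.3% ± 0.18 in HT55, the lowest. The miR-29b-3p share ran from 2.64% in MDST8 to 5.83% in HT55, and the miR-29c-3p share from 0.877% in Hutu80 to 1.82% in HT55. In single libraries the miR-29c-3p share reached at most 3.05%, beside a miR-29a-3p that differs by 1 base. Whether misread or misassigned miR-29a-3p reads contribute to it was not tested. The 3 guides together were 1.60% and 1.78% of all miRNA counts in the MDST8 libraries, and at most 0.440% in the other 10.

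The 5p arms of MIR29B1 and MIR29B2 differ in sequence, so their counts can be told apart, although how much each hairpin was used was not measured. Over all libraries miR-29b-1-5p had 220 of the 259 counts of both 5p arms (84.9%). In RCM-1 it had 70 of 71 (98.6%, Wilson 95% interval 92.4 to 99.8), in SW1116 54 of 60 (90.0%, 79.9 to 95.3) and in HT55 16 of 18 (88.9%, 67.2 to 96.9). Car-1 had 24 of 28 (85.7%, 68.5 to 94.3) and MDST8 48 of 64 (75.0%, 63.2 to 84.0). Hutu80 was lowest, with 8 of 18 (44.4%, 24.6 to 66.3), from 4 of 10 and 4 of 8 in its libraries. miR-29b-2-5p, the passenger arm of MIR29B2, had 10 counts in Hutu80 and 1 in RCM-1, although RCM-1 had 544869 counts in all and Hutu80 172362. These intervals cover counting error only, miR-29b-2-5p was below the filter on low counts, and no test was made.

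The balance of arms also varied. Both 5p arms together were 29.1% of all miR-29b counts, from 18.2% in MDST8 (14.5 to 22.6) to 60.0% in Hutu80 (42.3 to 75.4). Within MDST8 the libraries differed widely, at 8.06% (4.95 to 12.9) and 29.7% (23.3 to 37.1), and within RCM-1 at 21.6% and 47.8%. miR-29a-5p was scarce, with 62 of 17023 counts of both arms (0.364%) and at most 1.26% in a line. miR-29c-5p had 20 of 242 counts of its pair (8.26%), a pooled share that MDST8 weighs down with 2 of 127 (1.57%, 0.433 to 5.56). In SW1116 it was 21.6% (11.4 to 37.2), in Car-1 18.8% (6.59 to 43.0) and in RCM-1 14.6% (6.88 to 28.4). HT55 had 1 of 19 (5.26%, 0.935 to 24.6) and Hutu80 0 of 2. The efficiency of ligation and capture of each arm was not measured, so shares between arms are shares of counts.

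**Figure D4:**
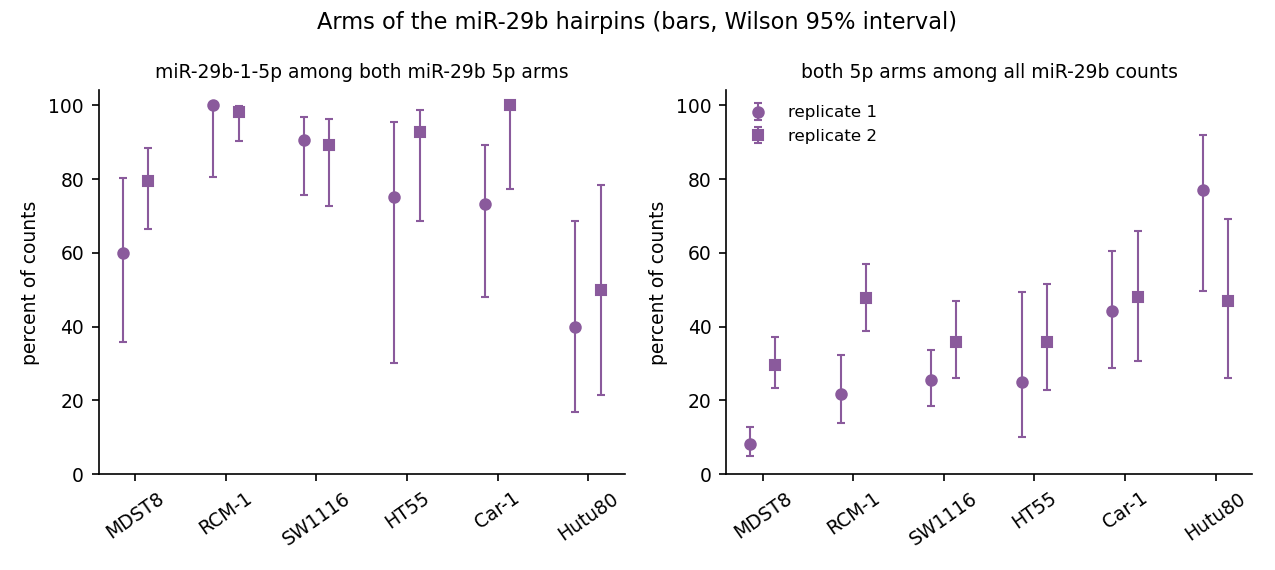
Percent of counts (vertical axes) by line and replicate, with Wilson 95% intervals for counting error: miR-29b-1-5p among both miR-29b 5p arms on the left, and both 5p arms among all miR-29b counts on the right. On the left the Hutu80 libraries are lowest, at 40.0% and 50.0%; on the right the 2 MDST8 libraries do not overlap.

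The 3 guides followed each other over the lines. Over the 6 line means of log2 CPM, Pearson's r was 0.961 for miR-29a-3p with miR-29b-3p, 0.966 with miR-29c-3p and 0.481 with miR-29b-1-5p. These are descriptions over 6 points that share libraries and depth, and MDST8 stands at one end of all of them. Outside the family, miR-504-5p and miR-10b-5p were the most similar to each guide, with r of 0.994 and 0.937 for miR-29a-3p, 0.970 and 0.935 for miR-29b-3p, and 0.952 and 0.896 for miR-29c-3p. miR-10b-5p stood at 15922 ± 2370 CPM in MDST8 (SD, n = 2), 6479 ± 778 in RCM-1 and 2162 ± 240 in Car-1. miR-504-5p was at 86.6 ± 16.2 CPM in MDST8 and at 0 in both Hutu80 libraries. In the other lines its means ran from 2.49 CPM in Car-1 to 21.2 in RCM-1, and only MDST8 carried it past the filter. Its likeness to guides that are high in MDST8 is therefore partly built in. The next most similar were miR-181b-5p for miR-29a-3p (0.907), miR-422a for miR-29b-3p (0.931) and miR-106b-5p for miR-29c-3p (0.892). For miR-29b-1-5p they were miR-361-3p (0.965), miR-361-5p (0.930) and miR-374a-5p (0.900). Over the 12 single libraries these were 0.837, 0.690 and 0.295, so the likeness of miR-374a-5p is in the line means only, while for the guides the values over libraries ran from 0.763 to 0.929.

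Other miRNAs known to act on the extracellular matrix or in fibrosis moved in both directions in MDST8. Of 29 such miRNAs 25 were tested, and 4 were higher and 8 lower in MDST8 (22.0% and 22.3% of all tested miRNAs), with a median log2 difference of -0.22 against -0.32 over all tested miRNAs. miR-21-5p, which is known to promote fibrosis, was higher by 1.25 ± 0.22 (edgeR adjusted p = 4.95e-05), and miR-30a-5p by 2.10 ± 0.23 (adjusted p = 3.86e-08). The others that were higher, named after their values were seen, were miR-34a-5p, a target of p53, by 3.30 ± 0.27 (adjusted p = 3.56e-10), and miR-30e-5p by 0.62 ± 0.24 (adjusted p = 0.0367). Among the lower ones was miR-200c-3p, which holds back the epithelial-to-mesenchymal transition, by -3.45 ± 0.32 (adjusted p = 1.75e-09). Its relatives miR-200a-3p, miR-200b-3p, miR-141-3p and miR-429, named after their values were seen, were lower by -2.90 to -3.71. Most of the 8 lower calls were thus of this family. The lower miR-192-5p, miR-200c-3p and miR-141-3p are also in the gut epithelium list. let-7a-5p did not pass in MDST8, at -0.22 ± 0.24 (adjusted p = 0.501).

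Of 5 miRNAs known to target DNA methyltransferases, as miR-29 does, 2 were higher and 1 lower in MDST8, with a median log2 difference of 0.58, against 22.0% higher, 22.3% lower and a median of -0.32 over all tested miRNAs. miR-152-3p was higher by 2.94 ± 0.22 (edgeR adjusted p = 6.83e-11), at 3026 ± 87.5 CPM (SD, n = 2) against 185 to 909 in the other lines. Its relative miR-148b-3p was higher by 1.24 ± 0.21 (adjusted p = 4.09e-05), while miR-148a-3p was lower by -1.40 ± 0.27 (adjusted p = 0.000108). miR-101-3p was at 0.58 ± 0.29 (adjusted p = 0.110). With all libraries kept, it passed in 2 of 9 other settings. These were no filter on low counts (edgeR adjusted p = 0.0309) and leaving out the 10 most abundant miRNAs (0.03015). Leaving out each library in turn gave log2 differences of 0.039 to 1.02, and 6 of these 12 fits also took miR-101-3p past the threshold.

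The levels of markers of other sources are given beside these results. All 6 gut epithelium miRNAs were lower in MDST8, where 22.3% of all tested miRNAs were lower. Their median log2 difference was -2.77 against -0.32 over all tested miRNAs. In Hutu80 5 of 6 were lower (16.7% of all tested miRNAs), and in Car-1 3 of 6 (13.5%). The lines with the most and the least miR-29 were both low in this list, and Car-1, between them in miR-29, was low in part of it. Of 8 blood and serum miRNAs, which could include RNA carried over from the bovine serum, 7 were tested, 2 were lower in MDST8, where 22.3% of all tested miRNAs were lower, and the other 5 did not pass. The lower ones were miR-486-5p (-0.89 ± 0.25, edgeR adjusted p = 0.00553) and miR-150-5p (-1.40 ± 0.43, adjusted p = 0.00989). Both calls were lost without MDST8 replicate 2, with log2 differences of -0.70 and -1.02. The miR-150-5p call was also lost with no filter on low counts (edgeR adjusted p = 0.0521) and without Hutu80 replicate 1 (log2 difference -1.09). Their summed level was 1797 to 2265 CPM in MDST8, against 1706 to 6067 in the other lines, and the defining markers miR-451a and miR-223-3p stood at 226 and 345 CPM in MDST8. Of 8 stroma and muscle miRNAs 3 were tested and 1 was lower in MDST8, where 22.3% of all tested miRNAs were lower. This was miR-1-3p, by -2.68 ± 0.49 (edgeR adjusted p = 6.86e-05). The others did not pass and went in both directions, miR-143-3p at 0.49 ± 0.33 (edgeR adjusted p = 0.234) and miR-199a-3p at -0.53 ± 0.65 (0.546). The summed level of this list was 354 to 361 CPM in MDST8 against 298 to 909 elsewhere. The part of serum RNA in the miR-29 levels was not tested.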

How the data were processed

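The authors deposited whole-number counts of mature miRNAs per library and a second table of log2 values, which equal log2(CPM + 1) of those counts (largest difference 5e-14). Per the labels' protocols, libraries used IsoSeek, a small RNA method with molecular identifiers. Per the submitters' processing notes, reads were placed on hg38. For the aligner, counter, miRNA release and identifier collapsing the entry is: not given in the sources used here. Intervals therefore cover counting error only. The members and lists were chosen with earlier results of these data known.

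The 12 libraries were grouped by the line in their labels. With edgeR 4.0.16 (R 4.3.3), filterByExpr kept 318 of 1636 miRNAs (99.7% of counts), TMM factors ran from 0.642 to 1.46, and 1 robust quasi-likelihood fit gave all contrasts. Benjamini-Hochberg adjustment was made per contrast over all tested miRNAs, at 0.05. The SE is the log2 difference divided by the square root of F. Ratios and Wilson intervals used SciPy 1.17.1. Replicates of a line differed beyond counting noise (chi-square per degree of freedom at least 6.75).

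Besides the members, the text names their other arms, the 3 miRNAs most correlated with each member, and up to 4 miRNAs of highest mean CPM per list. Replicate numbers did not pair the libraries: deviations of same-numbered libraries correlated from -0.228 to 0.266 over 15 pairs of lines, with 5 above 0.1. Alternatives were RLE factors, library totals, other filters, DESeq2 1.42.0, limma 3.58.1 (voom on counts, trend on the deposited log2 values), a replicate block, dropping the 10 most abundant miRNAs, and dropping libraries one by one. The steps were tested on simulated data.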

Additional observations from a re-analysis of the deposited data

How the results depend on the processing

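Over 21 alternatives each, the higher miR-29a-3p, miR-29b-3p and miR-29c-3p in MDST8 and the lower miR-29a-3p in Hutu80 kept their direction and their side of the threshold, as did all 4 tests across lines. Of 2244 values recomputed, 2095 were marked as unchanged, a mark that is not always a kept call. For counts of calls it meant a change within a set factor, and for shares a move smaller than the SD. A share left with 1 of 2 libraries always meets that rule. Direction changed in 32 values, none of these from a called difference of a member. With library totals as the only scaling, the median of all miRNAs moved by 0.62 in Car-1, -0.66 in SW1116, 0.35 in Hutu80 and -0.17 in RCM-1, and the share of higher calls went from 60.9% to 90.7%, 51.4% to 21.2%, 57.9% to 74% and 58.8% to 47.3%; without the 10 most abundant miRNAs it went from 49.6% to 60.3% in MDST8. With library totals, and then with limma-trend, the log2 difference became -0.52 and -0.56 for miR-29a-3p, -0.27 and -0.25 for miR-29b-3p and -0.50 and -0.35 for miR-29b-1-5p in SW1116, and 0.34 and 0.45 for miR-29b-1-5p in Car-1. Between HT55 and Car-1 it became -0.31 and -0.42 for miR-29a-3p and -0.0159 and -0.0474 for miR-29b-3p, and between Car-1 and SW1116 0.68 and 0.66 for miR-29c-3p. With limma-voom and limma-trend it became -0.36 and -0.53 for miR-29c-3p in HT55, -0.0650 and -0.0344 for miR-29b-1-5p in MDST8, and -0.16 and -0.0278 for miR-29c-3p between HT55 and SW1116. limma-trend gave 0.30 for miR-29c-3p in Car-1. Leaving out each library in turn gave -2.12 to 1.02 for miR-29c-3p in HT55, -1.08 to 1.01 for miR-29b-1-5p in MDST8, -0.25 to 0.50 for miR-29a-3p and -0.38 to 0.68 for miR-29c-3p in SW1116. It gave -0.13 to 0.65 for miR-29a-3p between HT55 and Car-1, -2.11 to 1.05 and -2.75 to 0.17 for miR-29c-3p between HT55 and SW1116 or RCM-1, -0.98 to 0.051 for miR-29b-3p between SW1116 and RCM-1, and -0.25 to 0.11 for let-7a-5p in MDST8. The number of miRNAs called then ran from 51 to 108 in HT55, 67 to 120 in Car-1, 49 to 110 in SW1116 and 75 to 127 in RCM-1, the low values being without HT55 replicate 1, Car-1 replicate 1, SW1116 replicate 2 and RCM-1 replicate 1 or 2. The pairs of lines called ran from 5 to 8 for miR-29b-3p, 3 to 7 for miR-29c-3p and 0 to 1 for miR-29b-1-5p. With all libraries kept, the pairs called for miR-29a-3p ran from 7 to 13 over 9 other settings, against 10 in the main fit. The pairs called were 5 for miR-29b-3p with library totals or limma-trend. They were 3 (DESeq2) and 2 (limma-trend) for miR-29c-3p, and 1 for miR-29b-1-5p without the 10 most abundant miRNAs. By Spearman's rho, 1 of the 3 most similar miRNAs was the same for miR-29c-3p and 1 for miR-29b-1-5p. Over all 7 arms, miR-29a-3p was 89.7% in HT55, 89.1% in Car-1, 90.6% in SW1116 and 88.0% in Hutu80, and miR-29c-3p 1.64% in Car-1 and 1.42% in RCM-1. With the replicate number as a block, although the numbers did not pair the libraries, 223 miRNAs were called across lines against 217. By this edgeR fit miR-29b-1-5p in RCM-1 reached an adjusted p of 0.045. No other call of a member changed among those recomputed singly, which left out most pairs of lines without MDST8. A line's remaining library was assumed to vary like the other lines, and ratios with miR-29c-3p could not be computed without a pseudocount. Depth limits miR-29c-3p and the 5p arms most, since 3 counts correspond to 41.8 CPM in the shallowest library. The causes of these changes were not tested.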
